A study of Mus musculus with 6 samples.

Results

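The genes described here are 10 of the 16254 in the count table, chosen by name as genes of iron handling or as targets of the transcription factor NRF2. The 6 iron genes are Hmox1, Fth1, Ftl1, Tfrc, Slc40a1 and Slc11a1, and the 4 NRF2 targets are Gclm, Nqo1, Txnrd1 and Srxn1. No measured value entered the choice, although results from these samples were known when it was made. All 10 passed the filter on low counts that left 13498 genes for testing.

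RNA was sequenced from eosinophils differentiated from the bone marrow of C57BL/6 mice aged 6 to 12 weeks and cultured for 24 h with extracellular vesicles (EVs) or with a sham control. The progenitors were first expanded in FLT3 ligand and stem cell factor and then matured in IL-5, the cytokine on which eosinophils depend. EVs came from the conditioned medium of activated TH2 cells, the helper T cells of allergic inflammation, by size exclusion chromatography and ultrafiltration, and were added at 5e+09 EVs per ml. The sham control, called media here as in the sample names, was medium that had never held cells, carried through the same isolation. The paper reports that EVs from activated helper T cells raised eosinophil survival in culture and lowered apoptosis, compared with untreated eosinophils. Whether the sequenced media samples held more dying eosinophils than the EV samples was not tested. Each group held 3 libraries made from poly(A) RNA, with 23697620 to 37874426 estimated counts each. The labels call the 3 samples of a group biological replicates and do not say whether the replicates came from separate animals, so that the p-values measure the spread between these samples. The media libraries differed among themselves more than the EV libraries did, and media replicate 1 stood apart from media replicates 2 and 3.

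Iron is needed by every cell and is toxic when free. Cells take it up through the transferrin receptor, encoded by Tfrc, store it inside ferritin, a shell of the heavy and light chains encoded by Fth1 and Ftl1, and release it through ferroportin, encoded by Slc40a1. Slc11a1 encodes NRAMP1, a metal transporter of phagosome membranes that is known from macrophages and neutrophils, and Hmox1 encodes heme oxygenase 1, which breaks heme down to iron, biliverdin and carbon monoxide. NRF2, encoded by Nfe2l2, is held low by KEAP1 and, when cells meet oxidants or electrophiles, binds antioxidant response elements together with small MAF proteins. BACH1 binds the same elements as a repressor and leaves them when heme is abundant. Hmox1, both ferritin genes and Slc40a1 are also known targets of NRF2, so that the groups of iron genes and NRF2 targets share members by function.

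Ferritin, ferroportin and transferrin receptor mRNAs carry iron responsive elements, short hairpins that bind iron regulatory proteins when iron is scarce. Binding in the 5′ UTR blocks translation and binding in the 3′ UTR protects the mRNA from decay. A search of GENCODE vM21 transcripts (GRCm38) looked for a C, any 5 bases and the loop CAGTGN, where N was not G, with 5 paired bases on both sides of the loop and G-T pairs allowed. It found the hairpin core in 332 of 55341 genes, or 0.6%, in 4 of the 10 genes described here, and in 1 of 74 further iron, heme and NRF2 genes, which was Keap1. The elements are shown because iron regulatory proteins bind such hairpins, and a match, or the lack of one, describes the sequence only. In each sequence, written 5′ to 3′ on the strand of the mRNA, capitals mark the unpaired C and the loop. Fth1 (5′ UTR, chr19:9982733-9982759, plus strand), Ftl1 (5′ UTR, chr7:45459780-45459806, minus strand) and Slc40a1 (5′ UTR, chr1:45925466-45925492, minus strand) held 1 element each. Tfrc held 4 in its 3′ UTR, on the plus strand at chr16:32631220-32631246, chr16:32631599-32631625, chr16:32631664-32631690 and chr16:32631711-32631737.
Fth1: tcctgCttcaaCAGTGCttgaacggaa
Ftl1: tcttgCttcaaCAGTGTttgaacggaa
Slc40a1: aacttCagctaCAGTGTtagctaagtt
Tfrc element 1: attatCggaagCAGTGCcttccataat
Tfrc element 2: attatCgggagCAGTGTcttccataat
Tfrc element 3: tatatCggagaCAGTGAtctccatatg
Tfrc element 4: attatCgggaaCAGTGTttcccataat

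RefSeq promoter windows (GRCm38.p6, from 250 bases before to 50 after each start) were searched for the core of the antioxidant response element, TGACNNNGC, on both strands. The letters TGAC of this core also occur in binding motifs of AP-1. A match, or the lack of one, describes the window only and not sequence outside it. The core lay in 12.4% of 32851 promoters, in 3 of the 12 windows matched to 8 of the genes described here, and in 8 of 32 windows of the other NRF2 targets listed. The matches were in Srxn1 (chr2:152105542-152105570), Gclm (chr3:122245413-122245441) and Txnrd1 (chr10:82859104-82859132), all genes of the plus strand. The core began at base 29 after the start for Srxn1, and at −134 and −92 for Gclm and Txnrd1. Txnrd1 had 3 windows, and its match lay in 1 whose start is inside the gene, which begins at 82833951. The windows of Nqo1, Fth1, Ftl1, Tfrc and Slc11a1 held no match, and Hmox1 and Slc40a1 were not among the promoters matched. The 3 stretches are shown because they are the matches found among the genes described here. They are written on the strand of the gene with the core in capitals, which therefore reads as the reverse complement.
Srxn1: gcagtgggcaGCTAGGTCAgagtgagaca
Gclm: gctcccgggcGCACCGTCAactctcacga
Txnrd1: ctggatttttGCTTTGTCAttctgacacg

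In EV-treated compared with media-treated eosinophils, the iron genes fell or were not called, and the NRF2 targets moved in both directions. Hmox1, Slc40a1 and Slc11a1 were 10.3-fold, 5.86-fold and 5.31-fold lower, Fth1, Ftl1, Txnrd1, Srxn1 and Gclm fell by less, and Nqo1 rose 1.80-fold. With edgeR's quasi-likelihood test and an adjusted p under 0.01, 8 of the 10 genes were lower, against a background of 11.6% of all genes tested, and 1 was higher, against 12.1%. A fall to log2 −1 or below was called for 3 of the 10, against 6.35%. The 2 groups did not overlap for 9 of the 10, against 49.6%. The median log2 fold change was −0.82 over the 10 genes and −0.014 over all genes tested. Over all genes, 1632 were called higher and 1572 lower with TMM scaling, which corrects for differences in RNA composition, and 1036 and 2342 when libraries were scaled by their totals alone. The median of all genes then moved to −0.16, and the directions of the 9 called genes did not change.

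**Figure D1:**
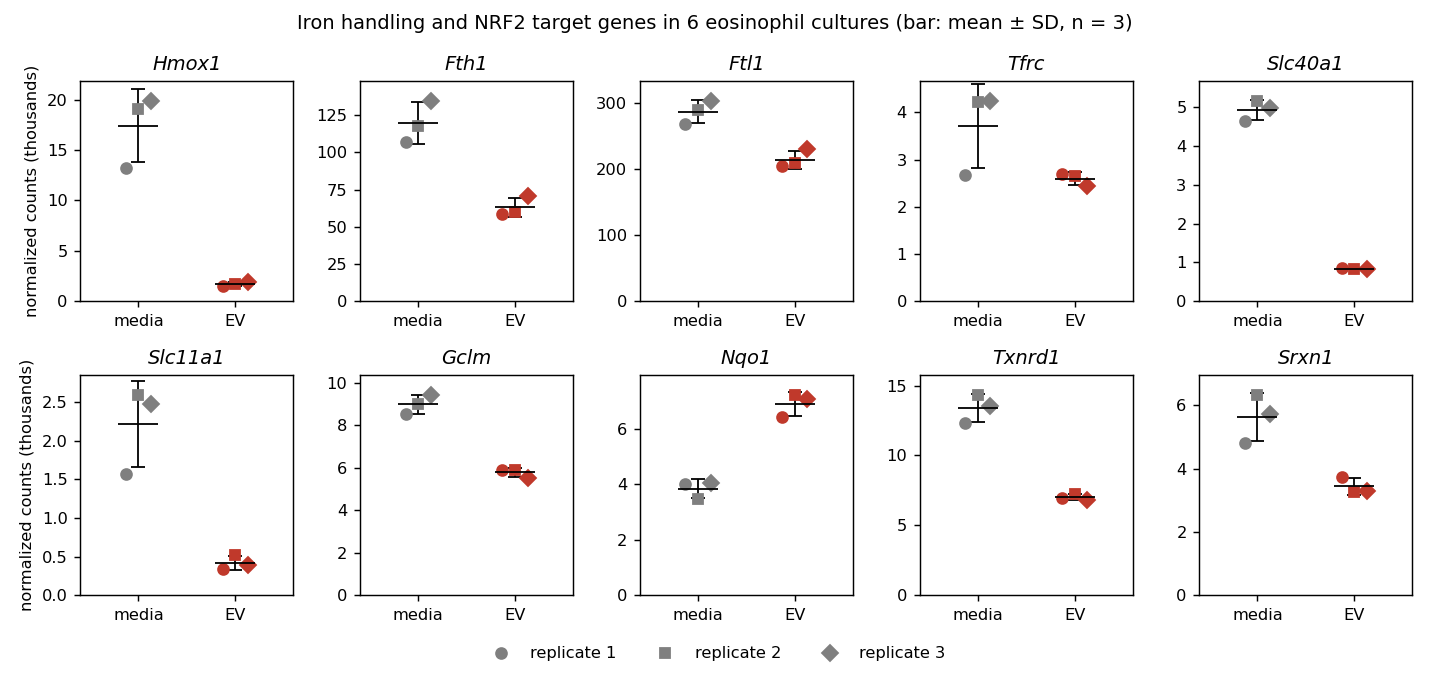
Normalized count of each of the 10 genes in each library, on linear axes from 0, with 1 symbol per library and bars for the mean ± SD of the 3 media-treated or 3 EV-treated samples. The groups are separate in every panel but that of Tfrc, and Nqo1 is the panel in which the EV-treated samples lie above.

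Hmox1 (chr8:75093621-75100589, plus strand, 5 exons; GRCm38 as for all gene positions here) had the largest change of the set. Its normalized counts, which are rounded counts divided by a library's size factor, were 13236, 19087 and 19863 in media replicates 1 to 3 and 1506, 1678 and 1879 in EV replicates 1 to 3. The groups lay far apart, and media replicate 1 was the lowest of its group by a wide margin. The means were 17395 ± 3623 and 1688 ± 187 (SD, n = 3 each), and the log2 fold change was −3.36 ± 0.15 (SE, adjusted p = 2.27e-07, edgeR's quasi-likelihood test). The size of this change lay at percentile 98.4 of all genes tested. Hmox2, the constitutive heme oxygenase, had means of 1902 ± 116 and 1752 ± 33.1 (SD, n = 3 each) and was not called (log2 fold change −0.12 ± 0.07, edgeR's quasi-likelihood test, adjusted p = 0.225). It was named after its values were seen.

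Both ferritin chains fell, the heavy chain more than the light chain. Fth1 (chr19:9980598-9985098, plus strand), which encodes the heavy chain with the ferroxidase activity that loads iron, had normalized counts of 106963, 117770 and 134476 in media and 58477, 59910 and 70660 in EV samples. The lowest media value was well above the highest EV value. The log2 fold change was −0.93 ± 0.09 (SE, adjusted p = 3.63e-05, edgeR's quasi-likelihood test), which left 52.6% of the media mean. Ftl1 (chr7:45457944-45459884, minus strand), which encodes the light chain, had 267796, 289035 and 302205 in media and 203746, 208707 and 229259 in EV samples, again without overlap. Its log2 fold change was −0.42 ± 0.06 (SE, adjusted p = 0.000412, edgeR's quasi-likelihood test), and 74.7% of the media mean remained.

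The Ftl1 value is uncertain, since 57.7% of the 31-base words of its transcripts also occur in other genes. The processed pseudogene Ftl1-ps1 shares 54.4% of them and has a count of its own. Ftl1-ps1 was listed at 1729 to 1871 normalized counts in media and 1846 to 2853 in EV samples, far below Ftl1. Fth1 shared 3.24% of its words with other genes, Gclm 5.61%, Slc11a1 2.32% and the remaining members at most 0.132%. The ferritin genes together took 1.27%, 1.40% and 1.49% of all counts in media replicates 1 to 3 and 0.814%, 0.832% and 0.910% in EV replicates 1 to 3.

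The ratio of Fth1 to Ftl1 within a library does not depend on scaling between libraries. It was 0.399, 0.407 and 0.445 in media and 0.287, 0.287 and 0.308 in EV samples. The groups did not overlap, and the ratio fell by 0.50 on the log2 scale, with a two-sided exact permutation p of 0.1, the smallest that 3 against 3 samples allow.

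Slc40a1 (chr1:45908068-45926523, minus strand) encodes the only known iron exporter of mammalian cells. Its normalized counts were 4645, 5157 and 4972 in media and 856, 840 and 826 in EV samples. Replicates stayed close together, with a coefficient of variation of 5.27% in media and 1.80% in EV samples, and the groups lay far apart. The log2 fold change was −2.55 ± 0.07 (SE, adjusted p = 1.03e-08, edgeR's quasi-likelihood test), the smallest adjusted p among the 10 genes. Unlike Hmox1, Slc40a1 was nearly as high in media replicate 1 as in the other media samples, at 0.917 of their mean compared with 0.680 for Hmox1.

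Slc11a1 (chr1:74375195-74386062, plus strand) had normalized counts of 1575, 2596 and 2476 in media and 345, 515 and 393 in EV samples. Its replicates varied most of all 10 genes relative to their mean, with a coefficient of variation of 25.2% in media and 21.1% in EV samples. The groups still lay far apart, and the log2 fold change was −2.40 ± 0.20 (SE, adjusted p = 1.1e-05, edgeR's quasi-likelihood test).

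Tfrc (chr16:32608920-32632794, plus strand) was the gene without a call. Its normalized counts were 2682, 4223 and 4237 in media and 2694, 2655 and 2433 in EV samples. Media replicate 1 lay among the EV samples, and media replicates 2 and 3 lay above all of them. The log2 fold change was −0.52 ± 0.15 (SE, adjusted p = 0.023, edgeR's quasi-likelihood test). Without media replicate 1 it was −0.70 (adjusted p = 5.61e-05, same test), and over the 13 alternatives the adjusted p ran from 5.61e-05 to 0.0971. DESeq2 also called it lower (adjusted p = 0.00151), as did edgeR's test on library totals without TMM (adjusted p = 0.00749) and the same test blocked on the replicate number (adjusted p = 0.003).

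Ratios within a library set Tfrc beside the exporter and ferritin. The ratio of Slc40a1 to Tfrc was 1.73, 1.22 and 1.17 in media and 0.318, 0.316 and 0.340 in EV samples. The ratio fell by 2.06 on the log2 scale (two-sided exact permutation p = 0.1, the smallest possible). The ratio of Tfrc to Fth1 was 0.0251, 0.0359 and 0.0315 in media and 0.0461, 0.0443 and 0.0344 in EV samples, which overlapped (log2 difference 0.44, two-sided exact permutation p = 0.2). Among the mRNAs with an iron responsive element shown above, those with theirs in the 5′ UTR had log2 fold changes of −0.42 (Ftl1), −0.93 (Fth1) and −2.55 (Slc40a1). Tfrc, with its elements in the 3′ UTR, had −0.52 and was not called. Whether iron regulatory proteins had a part in these values was not tested.

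Nqo1 (chr8:107388225-107403206, minus strand) was the gene that rose. It encodes a quinone reductase and is among the most used indicators of NRF2 activity. Its normalized counts were 4009, 3449 and 4038 in media and 6397, 7212 and 7054 in EV samples, with every EV value above every media value. The log2 fold change was 0.85 ± 0.08 (SE, adjusted p = 2.16e-05, edgeR's quasi-likelihood test).

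The other 3 NRF2 targets fell. Txnrd1 (chr10:82833951-82897712, plus strand), the cytosolic thioredoxin reductase, had normalized counts of 12340, 14334 and 13565 in media and 6946, 7244 and 6814 in EV samples. It was at 52.2% of the media mean, with no overlap and a log2 fold change of −0.94 ± 0.07 (SE, adjusted p = 3.58e-06, edgeR's quasi-likelihood test). Srxn1 (chr2:152105516-152111376, plus strand), sulfiredoxin, which restores overoxidized peroxiredoxins, had 4815, 6334 and 5740 in media and 3737, 3273 and 3307 in EV samples. The groups were separate, but the lowest media and the highest EV value were closer than for Txnrd1, and the log2 fold change was −0.71 ± 0.10 (SE, adjusted p = 0.000347, edgeR's quasi-likelihood test).

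Gclm (chr3:122245557-122270732, plus strand) encodes the modifier subunit of glutamate-cysteine ligase, the enzyme that limits glutathione synthesis. Its normalized counts were 8520, 9019 and 9441 in media and 5920, 5906 and 5539 in EV samples. The groups were separate and tight, and the log2 fold change was −0.64 ± 0.06 (SE, adjusted p = 2.76e-05, edgeR's quasi-likelihood test). Gclc, the catalytic subunit, had 2700, 2719 and 3115 in media and 1286, 1297 and 1304 in EV samples, a log2 fold change of −1.13 ± 0.08 (SE, adjusted p = 2.45e-06, edgeR's quasi-likelihood test). The ratio of Gclm to Gclc was 3.16, 3.32 and 3.03 in media and 4.60, 4.55 and 4.25 in EV samples, a rise of 0.50 on the log2 scale without overlap (two-sided exact permutation p = 0.1, the smallest possible).

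**Figure D2:**
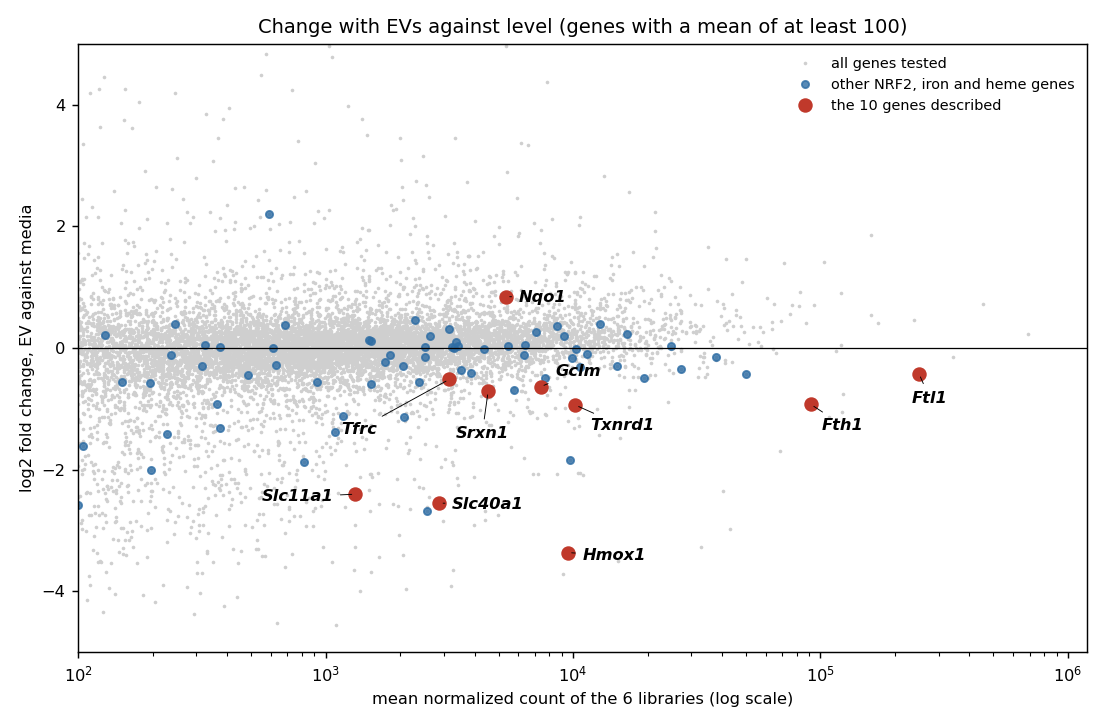
Log2 fold change (EV minus media) against mean normalized count on a log axis, for 10436 of the 13498 genes tested (grey, those with a mean of at least 100 and an absolute change of at most 5), with 64 further genes of the iron, heme and NRF2 lists and the 10 named genes marked. Hmox1, Slc40a1 and Slc11a1 lie below −2, the other called members lie between −1 and 1, and both ferritin genes stand at the far right.

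Levels can be compared between genes only per length. In normalized counts per kb of the principal transcript, the order in media samples was Ftl1 (295811 ± 17935), Fth1 (128887 ± 14921), Hmox1 (11087 ± 2309), Txnrd1 (4034 ± 303), Nqo1 (2467 ± 214), Srxn1 (2002 ± 272), Gclm (1609 ± 82.5), Slc40a1 (1461 ± 77.0), Slc11a1 (957 ± 241) and Tfrc (760 ± 183), each as mean ± SD with n = 3. The ranges of Nqo1 and Srxn1, of Gclm and Slc40a1, and of Slc11a1 and Tfrc overlapped, so that their order within each pair is not set. Both ferritin genes stood more than an order of magnitude above every other member in both groups. In EV samples the per-kb level of Hmox1 was 1076 ± 119 (SD, n = 3), level with Srxn1 at 1223 ± 92.2 and Gclm at 1036 ± 38.6, whose ranges its own overlapped. Nqo1, at 4435 ± 278, then stood above Txnrd1, at 2106 ± 66.1, and Tfrc, at 531 ± 28.9, above Slc40a1, at 249 ± 4.48 (SD, n = 3 each). Slc11a1 was the lowest, at 149 to 223. In media samples Txnrd1 was above Nqo1 and Slc40a1 above Tfrc, the opposite order in both pairs.

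The other genes of these pathways were read from lists written from general knowledge of the pathways, with earlier results of these data known. Of their 70 tested genes, 7 were higher, 26 lower and 37 not called, 40 did not overlap between groups, and the median log2 fold change was −0.20, to be read against the 12.1% higher, 11.6% lower and 49.6% without overlap over all genes. The 7 higher genes became 2 with library totals without TMM and 3 without media replicate 2 or without any 1 of the EV replicates, and the 26 lower genes became 17 without EV replicate 3. Over all genes, the 1632 higher calls became 1036 with library totals and 1071 to 1388 without 1 of those samples. The 1572 lower calls over all genes became 1018 without EV replicate 3. Nfe2l2 itself had means of 4368 ± 197 in media and 4341 ± 86.6 in EV samples (SD, n = 3 each) and was not called (log2 fold change −0.0087, edgeR's quasi-likelihood test, adjusted p = 0.929). Of the 10 NRF2 regulators, 2 were higher, 2 lower and 6 not called. Sqstm1, which encodes the autophagy receptor p62 that binds KEAP1, fell by 0.50 ± 0.06 on the log2 scale (SE, adjusted p = 9.01e-05, edgeR's quasi-likelihood test). Keap1 had the log2 fold change −0.29 (adjusted p = 0.0079), Cul3, the ubiquitin ligase scaffold that works with KEAP1, 0.32 (adjusted p = 0.00521), and Bach1 0.26 (adjusted p = 0.00509, edgeR's quasi-likelihood test for all 3). These 3 small changes kept their call in 6 or 7 of 13 alternatives, with adjusted p up to 0.127 for Bach1, 0.076 for Cul3 and 0.057 for Keap1. Bach1 had 6761, 6177 and 6358 normalized counts in media and 7857, 7740 and 7589 in EV samples, without overlap.

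Of the 27 other NRF2 targets, 15 were lower, 1 higher and 11 not called, and their median log2 fold change was −0.36. Gstm1, a glutathione transferase, had 4458 ± 174 normalized counts in media and 699 ± 98.3 in EV samples (SD, n = 3 each), and its log2 fold change was −2.67 ± 0.10 (SE, adjusted p = 6.31e-08, edgeR's quasi-likelihood test), with 28.8% of its words shared with related genes. Prdx1, a peroxiredoxin that Srxn1 repairs, had 10146, 16317 and 18982 in media and 3390, 4793 and 4459 in EV samples, with 15.2% of its words shared. Its log2 fold change was −1.84 ± 0.21 (SE, adjusted p = 7.59e-05, edgeR's quasi-likelihood test), and media replicate 1 was the lowest of its group, as it was for Hmox1. Ephx1, an epoxide hydrolase, and Blvrb, the flavin and biliverdin reductase, had log2 fold changes of −2.58 and −1.12 (adjusted p = 0.000156 and 3.16e-05, edgeR's quasi-likelihood test). Gss, glutathione synthetase, changed by −0.92 on the log2 scale (adjusted p = 0.00252, edgeR's quasi-likelihood test) and kept its call in 9 of 13 alternatives. Gpx4, the peroxidase that removes lipid peroxides, was the target that rose, with a log2 fold change of 0.37 ± 0.06 (SE, adjusted p = 0.00134, edgeR's quasi-likelihood test), and it was named after its values were seen.

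Of the 15 other genes of iron transport and storage that could be tested, 2 were higher, 4 lower and 9 not called, with a median log2 fold change of −0.12. Slc39a8, which encodes ZIP8, an importer of zinc, iron and manganese, had 248, 114 and 265 normalized counts in media and 1043, 962 and 896 in EV samples. Every EV value lay far above every media value (log2 fold change 2.20 ± 0.25, SE, adjusted p = 8.54e-05, edgeR's quasi-likelihood test). Ncoa4, the receptor that delivers ferritin to lysosomes, rose by 0.24 on the log2 scale (adjusted p = 0.00671, edgeR's quasi-likelihood test), a call kept in 7 of 13 alternatives, with 18.8% of its words shared with other genes. The genes that fell were Steap3, an endosomal iron reductase (−2.01), Lcn2, which binds bacterial siderophores (−1.87), Hfe, which binds the transferrin receptor (−1.42), and Slc25a37, the mitochondrial iron importer mitoferrin 1 (−0.56), all as log2 fold changes with adjusted p between 1.13e-06 and 0.000759 in edgeR's quasi-likelihood test.

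Of the 3 genes of iron sensing, Ireb2, which encodes iron regulatory protein 2, was at 2506 normalized counts in media and 2527 in EV samples and was not called (edgeR's quasi-likelihood test, adjusted p = 0.914). Aco1, which encodes iron regulatory protein 1, had a log2 fold change of −0.56, and Fbxl5, the iron-sensing adaptor that removes these proteins, one of 0.46 (adjusted p = 0.00596 and 0.00518, edgeR's quasi-likelihood test). These calls held in 8 and 7 of 13 alternatives.

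Of 15 tested heme genes, 4 were lower, 1 higher and 10 not called. Alas1, which encodes the first enzyme of heme synthesis outside the erythroid lineage, rose from 11089 ± 431 to a mean 1.32 times as high, a log2 fold change of 0.40 ± 0.05 (SE, adjusted p = 0.000263, edgeR's quasi-likelihood test). The heme exporter Flvcr1 (−1.38), the lysosomal heme transporter Slc48a1 (−0.69), the biliverdin reductase Blvra (−1.31) and the porphyrin exporter Abcg2 (−1.61) were lower, as log2 fold changes with adjusted p between 7.78e-06 and 0.00262 in edgeR's quasi-likelihood test. Abcg2 kept its call in 9 of 13 alternatives and the other 3 in all of them.

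**Figure D3:**
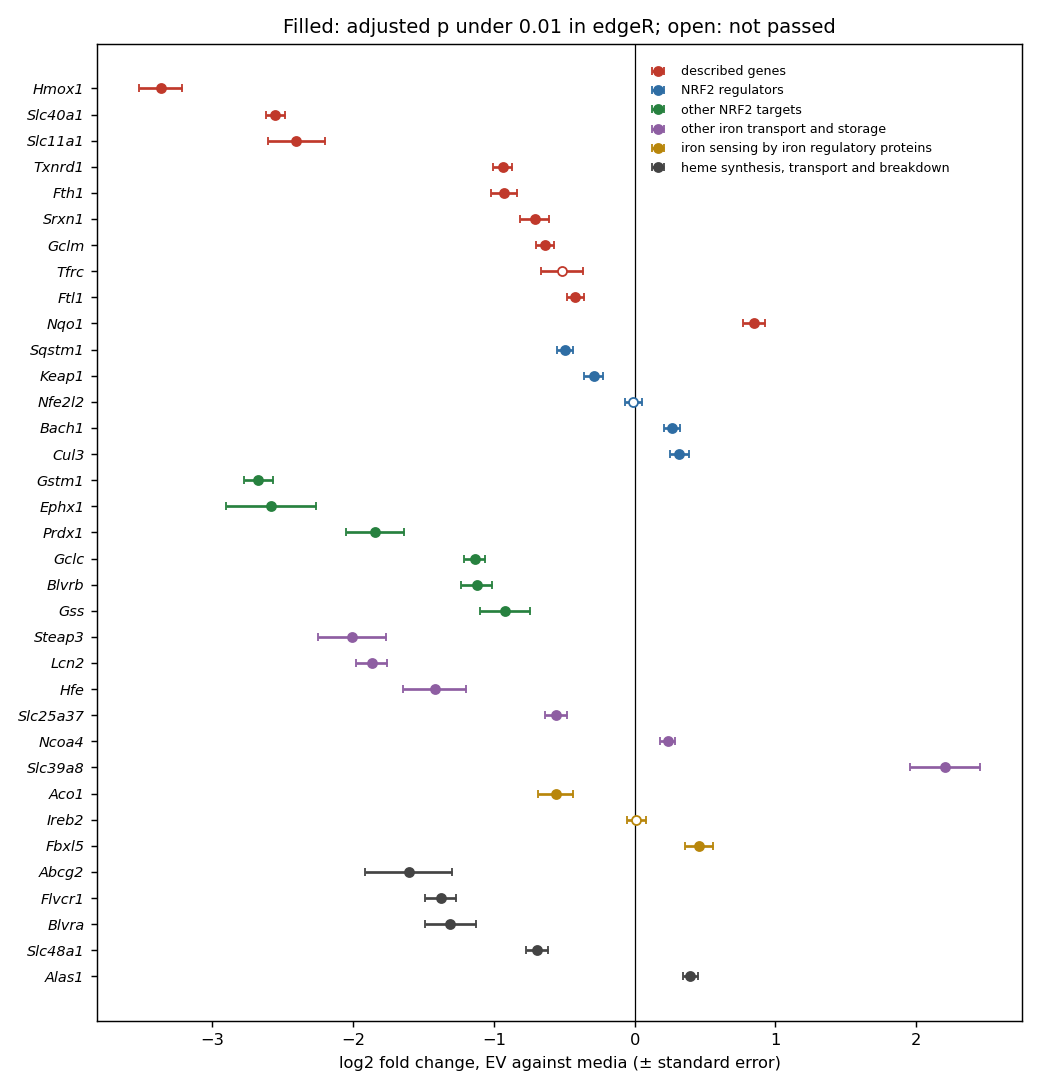
Log2 fold change (EV minus media) with its standard error for the 10 genes and the further named genes of each list, grouped by list, with genes that passed an adjusted p under 0.01 marked apart from those that did not. Most of the named genes lie left of 0, while Nqo1, Slc39a8, Fbxl5, Alas1, Cul3, Bach1 and Ncoa4 lie to the right and Nfe2l2 and Ireb2 at 0.

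The labelled cell type was checked against its markers. Eosinophil granule and surface genes were abundant in all 6 libraries, with Prg2, the major basic protein, at 558759 to 777590 normalized counts. Of 8 eosinophil markers, 6 were higher in EV samples, none lower, and the median log2 fold change was 0.71. The 13 macrophage and monocyte markers in the table mostly moved the other way, with 8 lower, 1 higher and 4 not called, 10 without overlap and a median of −2.13. Cd163, also on that list, had no row in the table. Their summed level ran from 49789 to 67154 in media and from 43742 to 48123 in EV samples. Cd5l, a secreted macrophage protein, changed by −4.55, C1qa by −2.58 and Csf1r, the receptor for macrophage colony-stimulating factor, by −1.31. Adgre1, which encodes F4/80 and is also expressed by mouse eosinophils, was the marker that was higher (0.62) and made up 21326 of the summed level in media and 32764 in EV samples, as means.

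Hmox1, Slc40a1 and Slc11a1 are expressed at high levels by tissue macrophages. These markers moved in the same direction as the 3 genes, and their part in the result was not tested. In these bulk libraries, fewer cells of a type and less RNA per cell cannot be told apart. The part of a difference in eosinophil survival between the groups was not tested either. Among media samples, replicate 1 was the lowest for 11 of the 13 macrophage and monocyte markers, at a median of 0.560 of the mean of replicates 2 and 3. It was also the lowest for 9 of the 10 genes described here, at a median of 0.866, and for none of the 8 eosinophil markers, at 1.12. How often it was the lowest over all genes tested was not measured, so that these counts have no background beside them. By gene, this ratio was 0.621 for Slc11a1, 0.634 for Tfrc, 0.680 for Hmox1, 0.798 for Srxn1, 0.848 for Fth1, 0.885 for Txnrd1, 0.906 for Ftl1, 0.917 for Slc40a1, 0.923 for Gclm and 1.07 for Nqo1.

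Leaving out media replicate 1 moved no called member across the threshold. The log2 fold changes without 1 library at a time ran from −3.52 to −3.25 for Hmox1, from −2.58 to −2.52 for Slc40a1, from −2.59 to −2.27 for Slc11a1 and from 0.78 to 0.90 for Nqo1. Other cell types were also measured. Of 6 mast cell and basophil markers 4 rose, with a median of 1.57, and their summed level ran from 2266 to 3332 in media and from 6490 to 8193 in EV samples. Of 7 neutrophil markers 4 were lower and 1 higher, with a median of −0.90. Their summed level ran from 15084 to 17443 in media and from 13916 to 17285 in EV samples. Ngp, which was not called, made up 7950 of it in media and 8067 in EV samples, as means. Ly6g, the higher one, made up 559 and 3516. Erythroid markers were summed at 51.4 to 74.1 and 151 to 194, with Hbb-bt called higher, T cell markers at no more than 138 and 75.4, and dendritic cell markers at 80.9 to 125 and 89.6 to 128. None of the tested T cell or dendritic cell markers was called. The part of these cells in the results was not tested.

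**Figure D4:**
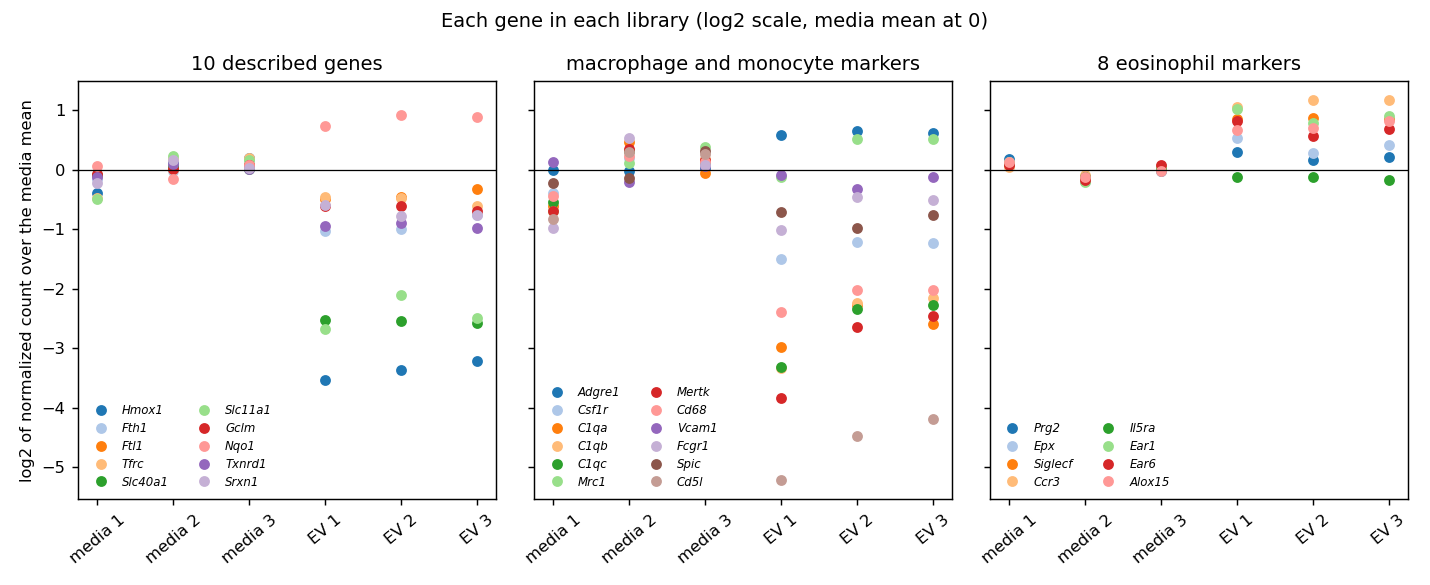
Log2 of each library's normalized count over the media mean, for the 10 genes beside macrophage and monocyte markers (all but 1 of those in the table) and eosinophil markers, with 1 point per library. Media replicate 1 lies below the other media samples for most macrophage markers and for Hmox1, Tfrc and Slc11a1, near them for Slc40a1 and Gclm, and above them for the eosinophil markers.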

How the data were processed

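Per the labels, poly(A) RNA of 3 media-treated and 3 EV-treated mouse eosinophil samples was sequenced. The submitters' processing notes name FastQC, cutadapt, Salmon, DESeq2 and the build mm10, and versions are not given in the sources used here. The authors deposited estimated counts per gene symbol, which need not be whole. Their tables of normalized counts and of their own comparison (fold changes and p-values) were not used.

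Counts were rounded and 13498 of 16254 genes tested with edgeR 4.0.16 (R 4.3.3; TMM, filterByExpr, quasi-likelihood test, Benjamini-Hochberg adjustment over all genes tested, adjusted p under 0.01). Standard errors are the log2 fold change over the square root of F. The fit was tested on simulated data. DESeq2 1.42.0, limma 3.58.1, other scalings, no filter, a threshold of 0.05, the replicate number as a block and leaving out each sample were the alternatives. At 23697620 to 37874426 counts per library, the spread between samples sets the precision. Shared sequence is the percent of a gene's 31-base words found in other genes of GENCODE vM21.

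The genes and lists were chosen with earlier results of these data known. All 10 members were named. From the wider lists Nfe2l2, Keap1, Bach1, Gclc, Ireb2 and Aco1 were named, with up to 6 genes per list of the largest change among those called, without overlap and with a mean of at least 50 normalized counts. Hmox2, Gpx4 and Ftl1-ps1 were named after their values were seen. The value of 1 marker gene is not reported here.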

Additional observations from a re-analysis of the deposited data

How the results depend on the processing

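The 9 called genes of the set kept direction and call in all 13 alternatives that refit the table, while Tfrc kept its direction in all and passed in 4. Lower members numbered 8 or 9 and higher members 1 throughout, including at an adjusted p under 0.05, where 9 were lower. Of the wider lists, 7 genes were called higher, but 2 with library totals without TMM, 4 with upper quartile scaling, and 3 to 7 when 1 sample was left out (3 without media replicate 2, EV replicate 1, EV replicate 2 or EV replicate 3). Lower genes of these lists numbered 26, and 17 to 27 when 1 sample was left out, with 17 without EV replicate 3. Over all genes, higher calls also fell, to 1036 with library totals, 1369 with upper quartile scaling and 1071 without EV replicate 3. Lower calls over all genes fell to 1018 without EV replicate 3. The change of Nfe2l2, which was not called, reversed without a filter (0.0073) and ran from −0.035 to 0.036 when 1 sample was left out. That of Ireb2, not called either, reversed with library totals (−0.14) and upper quartile scaling (−0.034) and ran from −0.031 to 0.053 when 1 sample was left out. The cause was not tested. Same-numbered samples correlated at 0.117, 0.0846 and 0.0371 in their deviations. Pairs with different numbers ran from −0.116 to 0.0487, and EV replicate 3 correlated best with media replicate 2, at 0.0487. The labels do not say whether same-numbered samples share an animal or a culture, and these correlations do not settle it. With the replicate number as a block, 9 members were lower and 1 higher, 7 genes of the wider lists were higher and 26 lower, and over all genes 1794 were higher and 1781 lower. For the ratios the block gives an exact permutation p of 0.25, the smallest possible with 3 pairs. How far shared sequence moves the count of Ftl1 was not tested.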
